A study of Mus musculus with 12 samples.

Results

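The 10 genes described here are Foxo1, Foxo3, Foxp1, Klf2, Klf3, Klf6, Il7r, Btg1, Btg2 and Tob1, which are known for holding T cells at rest and for keeping naive T cells alive. They were chosen by gene symbol, and all 10 were found among the 55536 annotated genes of the count table and in the FPKM table. RNA-seq was done on mouse CD8+ T cells of the OT-I strain on C57BL/6J, which carry 1 transgenic T cell receptor specific for an ovalbumin peptide and, by the study's methods, lack Rag1 or Rag2. In the Ag and Ag+Costim groups the OT-I cells had been moved by adoptive transfer into wild-type C57BL/6J hosts. The Ag group (5 libraries) received the peptide with rat IgG as control antibody, and the Ag+Costim group (5 libraries) received the peptide with agonist antibodies against OX40 (CD134) and 4-1BB (CD137). Cells were sorted from spleen and lymph nodes after 4 days by the labels, and the study's methods give a somewhat shorter time. The Naive group (2 libraries) was purified from OT-I mice with no transfer and no stimulation, so transfer, host and antigen cannot be told apart in a comparison with Naive. Mice of both sexes were used, and neither sex nor age is given per library.

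Quiescence in T cells is an active state. FOXO transcription factors stay in the nucleus of resting cells and drive the genes for the IL-7 receptor, for homing receptors and for Klf2, and they leave the nucleus when the PI3K-AKT pathway phosphorylates them. Foxp1 shares their DNA-binding domain and restrains naive cells, the Krüppel-like factors Klf2, Klf3 and Klf6 act on homing and growth genes, Il7r encodes the receptor chain that receives the IL-7 survival signal, and Btg1, Btg2 and Tob1 bring the CCR4-NOT deadenylase to mRNAs and slow division. Activated T cells are known to leave this state.

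In brief, all 10 genes were lower in Ag+Costim than in Naive, but they fell at different steps. Ag and Ag+Costim were parallel groups sorted at the same day by the labels. Steps, falls and rises are therefore differences between groups here, and no order in time was measured. Il7r, Klf3, Klf6 and Tob1 were lower in Ag than in Naive, Il7r 5.38-fold, Klf3 2.80-fold, Tob1 2.20-fold and Klf6 1.81-fold. Btg1 and Btg2 were not called between Ag and Naive. Foxo1 was called 1.42-fold higher in Ag than in Naive, a call lost without Naive 2 or in FPKM. Foxo1, Btg1 and Btg2 were 4.15-fold, 6.48-fold and 2.59-fold lower in Ag+Costim than in Ag. Foxp1, Klf2, Klf3 and Il7r fell at both steps. Foxo3 was low in every library and fell 3.86-fold from Ag to Ag+Costim.

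The 250 bases before 5 RefSeq starts are shown here, from the RefSeq promoter table of build GRCm38.p6. Of these starts, the transcript results below return to those of Foxp1 only. The first 3 belong to Btg1, Btg2 and Tob1, members of 1 protein family. Btg1 and Btg2 RNA were both lower in Ag+Costim than in Ag, and Tob1 RNA was not. The last 2 are the internal Foxp1 start that a splice node marks and a Foxp1 start further downstream, where only some of the downstream transcripts start. Each is written 5′ to 3′ on the strand of the gene, and the last base is the one before the start. Capitals mark a match to 1 of the motifs searched.
Btg1, chr10:96616751-96617000, plus strand: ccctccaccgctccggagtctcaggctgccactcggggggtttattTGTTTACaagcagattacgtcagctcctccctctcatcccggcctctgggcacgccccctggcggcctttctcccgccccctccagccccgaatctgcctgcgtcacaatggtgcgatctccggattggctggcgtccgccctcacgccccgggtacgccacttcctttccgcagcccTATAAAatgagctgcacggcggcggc
Btg2, chr1:134079156-134079405, minus strand: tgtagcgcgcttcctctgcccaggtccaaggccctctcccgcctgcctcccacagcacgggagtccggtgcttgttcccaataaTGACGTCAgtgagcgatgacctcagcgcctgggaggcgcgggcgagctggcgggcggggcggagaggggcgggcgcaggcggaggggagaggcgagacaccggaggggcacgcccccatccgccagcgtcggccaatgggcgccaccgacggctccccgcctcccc
Tob1, chr11:94211204-94211453, plus strand: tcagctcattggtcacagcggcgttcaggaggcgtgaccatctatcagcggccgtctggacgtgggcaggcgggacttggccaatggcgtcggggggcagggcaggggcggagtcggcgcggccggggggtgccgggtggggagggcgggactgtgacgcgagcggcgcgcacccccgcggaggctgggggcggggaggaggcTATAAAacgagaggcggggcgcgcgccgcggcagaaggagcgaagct
Foxp1 internal start, chr6:99266516-99266765, minus strand: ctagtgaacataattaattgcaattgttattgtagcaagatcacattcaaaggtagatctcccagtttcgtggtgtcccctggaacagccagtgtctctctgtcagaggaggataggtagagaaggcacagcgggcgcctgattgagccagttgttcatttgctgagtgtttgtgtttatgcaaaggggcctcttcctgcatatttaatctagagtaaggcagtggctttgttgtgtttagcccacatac
Foxp1 downstream start, chr6:99028299-99028548, minus strand: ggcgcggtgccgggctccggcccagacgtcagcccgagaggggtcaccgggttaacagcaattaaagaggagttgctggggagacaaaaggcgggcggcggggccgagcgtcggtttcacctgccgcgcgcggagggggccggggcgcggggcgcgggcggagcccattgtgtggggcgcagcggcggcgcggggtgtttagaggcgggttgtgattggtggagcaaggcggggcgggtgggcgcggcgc

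All 10 genes were matched in that table, with 12 promoters, of which Foxp1 has 3. A set of 5 motifs was searched on both strands of the 250 bases: the forkhead motif GTAAACA, the Krüppel-like factor motif CCACACCC, the ETS motif CCGGAAGT, the cAMP response element TGACGTCA and the TATA motif TATAAA. The motifs do not overlap in these windows. Among all 32851 promoters of the table, 3.17%, 3.20%, 2.88%, 1.55% and 12.4% held them, in that order. Of the 12 promoters, only that of Btg1 held the forkhead motif, as its reverse TGTTTAC, whose first letter lies 204 bases before the start. Btg1 also held a TATA motif 26 bases before the start, and Tob1 held one at 47 bases. Btg2 held the cAMP response element at 166 bases. The other 9 promoters held none of these letters. The internal Foxp1 promoter had 45.2% G and C and 3 CG pairs, against 74.0% and 34 in the downstream one and a median of 52.4% and 6 over all promoters.

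The libraries differed in depth and composition as follows. Total counts were 42342577 and 43491402 in Naive, 24006053 to 45980125 in Ag, where Ag 4 was the shallowest, and 40028682 to 49294934 in Ag+Costim. The 9 markers of T cells summed to 11620 to 12340 CPM (counts per 1000000 counts of the TMM-scaled library) in Naive, 10090 to 14330 in Ag and 5896 to 8108 in Ag+Costim, so Ag+Costim lay below both other groups. From Ag to Ag+Costim 7 of the 9 were called lower and none higher, among them Cd3g (1729 to 528.7 CPM), Cd3d (1513 to 507.5), Trac (1798 to 811) and Cd8a (1067 to 560), while Cd3e (826 to 708) was not called. From Naive to Ag 4 were called higher and 1 lower. Cd4 and Foxp3 stayed below 3 CPM. Genes of dividing cells rose at both steps: all 15 of the list were called higher from Naive to Ag (the first step) and from Ag to Ag+Costim (the second step), with sums of 311 to 325 CPM in Naive, 1521 to 2908 in Ag and 6507 to 8754 in Ag+Costim. Of 8 B cell markers, 6 were called higher at the first step and 6 lower at the second, with sums of 1115 to 1141, 1479 to 2107 and 740 to 1422 CPM and Pax5 below 1 CPM in all groups. Of 8 red cell markers, 6 were called lower at the second step, with sums of 151 to 2072, 626 to 6384 and 15.3 to 224 CPM. Myeloid markers summed to 115 to 211, 275 to 376 and 203 to 295 CPM. Natural killer cell markers summed to 1032 to 1307, 2401 to 3382 and 1468 to 2294 CPM. Markers of CD4 and regulatory T cells summed to 16.3 to 24.2, 118 to 189 and 40.5 to 73.6 CPM. Single genes made up most of some sums. Nkg7 (means of 1131, 2820 and 1719 CPM) led the natural killer sum and Ighm (1025, 1435 and 732 CPM) the B cell sum. Ctla4 (142.5 CPM in Ag and 42.4 in Ag+Costim) led the CD4 and regulatory T cell sum in those 2 groups. Of 16 immediate early and heat shock genes, which respond to handling, 9 were called lower and 3 higher at the second step. The part of these differences in the results below was not tested. In bulk RNA, fewer cells of a type and less RNA of a gene per cell cannot be told apart.

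Differences were tested with edgeR's quasi-likelihood test, two-sided, on all 12 libraries, with Benjamini-Hochberg adjustment over the 18817 genes tested. A gene was called at an adjusted p below 0.05, and every adjusted p below comes from this test unless another is named. Between Ag and Naive, 24.2% of all genes tested were called higher and 22.5% lower, and 22% were called lower with no overlap between the libraries of the groups. Of the 10 genes, 6 were called lower and 1 higher, with a median log2 fold change of -0.72 against 0.02 over all genes. Between Ag+Costim and Ag, 26.6% of all genes were called higher (5006) and 26.5% lower (4979), and 18% were called lower with no overlap. Upper-quartile scaling moved that split to 4056 higher and 6338 lower, and the median of all genes from -0.05 to -0.24. Of the 10 genes, 8 were called lower and 1 higher, with a median of -1.08. Between Ag+Costim and Naive, 26.9% of all genes were called higher and 25.4% lower, and 25.1% were called lower with no overlap. All 10 genes were called lower and did not overlap between these groups, with a median of -1.85 against -0.02 over all genes.

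**Figure D1:**
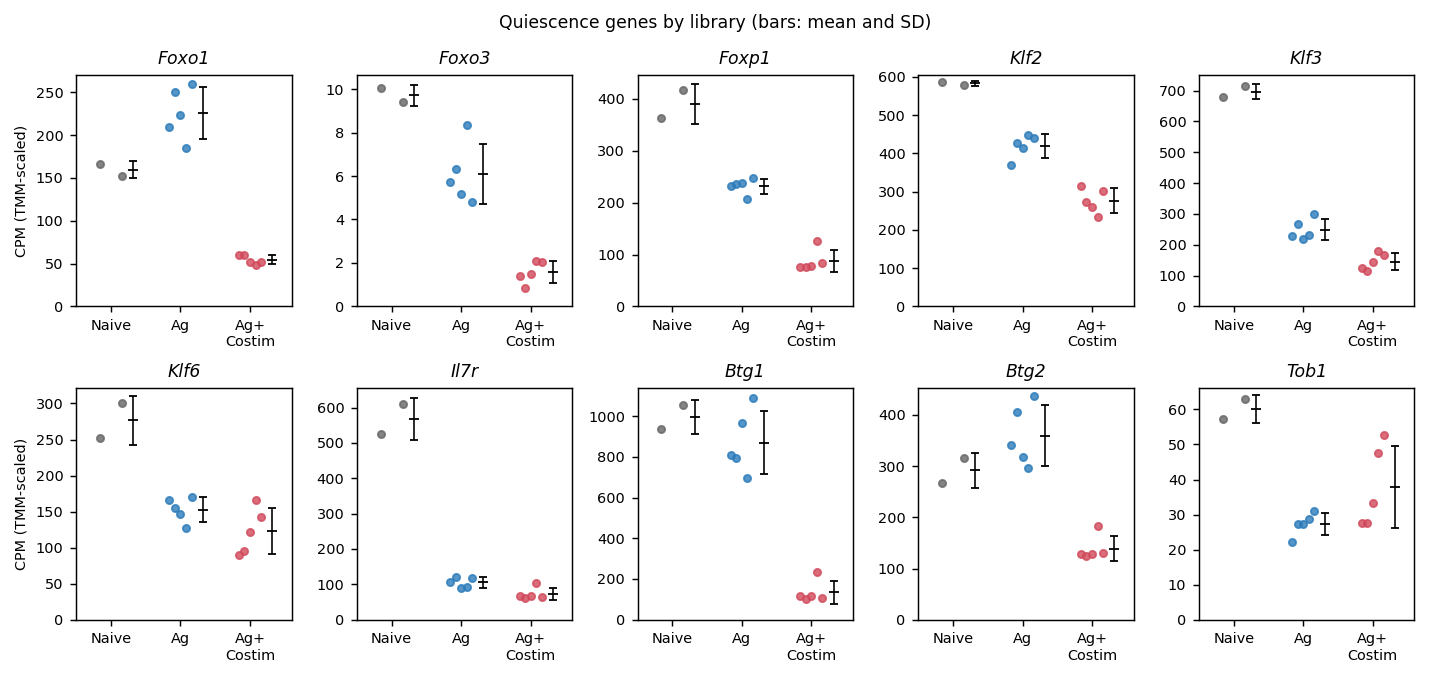
Level of each of the 10 genes in every library (points), in TMM-scaled CPM on a linear axis from 0, for Naive (n = 2), Ag (n = 5) and Ag+Costim (n = 5). The black bar beside each group is the mean with its SD, and the Ag+Costim points lie below both Naive points for every gene.

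Among the forkhead factors, Foxo1 (ENSMUSG00000044167.6, chromosome 3 of mm10, 52268336 to 52353221, plus strand) encodes the one that maintains Il7r and homing genes in naive T cells. It measured 167 and 153 CPM in the Naive libraries. The Ag libraries 1 to 5 measured 210, 251, 224, 185 and 260 CPM, all above Naive. The Ag+Costim libraries 1 to 5 measured 59.8, 60.2, 52.2, 48.4 and 51.4 CPM, all below both other groups. Foxo1 thus rose from Naive to Ag by 0.50 on the log2 scale (SE 0.14, adjusted p = 0.00961) and fell from Ag to Ag+Costim, by 2.05 on that scale (SE 0.11, adjusted p = 1.49e-08). The rise was not called without Naive 2 (0.44) or in FPKM (0.31). Ag+Costim was lower than Naive as well, at -1.55 (SE 0.13, adjusted p = 5.02e-07).

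Foxo3 (ENSMUSG00000048756.11, chromosome 10, 42181841 to 42276755, minus strand), a FOXO factor that also acts on survival genes, was by far the lowest of the 10. The Naive libraries measured 10.1 and 9.39 CPM, the Ag libraries 5.73, 6.31, 5.196, 8.35 and 4.81 CPM, and the Ag+Costim libraries 1.40, 0.842, 1.48, 2.09 and 2.05 CPM. The 3 groups did not overlap. From Naive to Ag the log2 fold change was -0.68 (SE 0.30, adjusted p = 0.0765), which was not called, although it was called in 6 of the alternatives, among them the fit without Ag 4, the shallowest library (-0.82), that without Ag+Costim 2 (-0.68) and that of the 2 groups alone (-0.68). From Ag to Ag+Costim, Foxo3 fell by 1.95 on the log2 scale (SE 0.24, adjusted p = 1.59e-05).

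Foxp1 (ENSMUSG00000030067.17, chromosome 6, 98925338 to 99522721, minus strand) encodes a forkhead repressor needed for naive T cell quiescence. It measured 363 and 418 CPM in Naive. The Ag libraries lay between 208 and 247 CPM, with a mean of 232 ± 14.7 CPM (SD, n = 5). In Ag+Costim, 4 libraries lay between 75.2 and 83.9 CPM and Ag+Costim 4 at 125 CPM. Foxp1 fell at the first step by 0.75 on the log2 scale (SE 0.17, adjusted p = 0.00254) and at the second by 1.40 (SE 0.13, adjusted p = 1.47e-06). Its first fall was -0.08 and not called once each library's trend on gene length was removed. A further 4 annotated genes overlap Foxp1 on its strand.

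Among the Krüppel-like factors, Klf2 (ENSMUSG00000055148.7, chromosome 8, 72319033 to 72321656, plus strand), which drives S1pr1 in resting T cells, fell at both steps. Naive measured 587 and 579 CPM. The Ag libraries measured 368, 427, 413, 447 and 440 CPM, and the Ag+Costim libraries 315, 272, 260, 233 and 301 CPM, with no overlap. The log2 fold changes were -0.48 (SE 0.12, adjusted p = 0.00470) and -0.60 (SE 0.09, adjusted p = 8.55e-05).

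Klf3 (ENSMUSG00000029178.14, chromosome 5, 64803388 to 64832901, plus strand), a repressor that competes with other Krüppel-like factors for their sites, measured 680 and 715 CPM in Naive. It was 220 to 299 CPM in Ag, with a mean of 249 ± 32.9 CPM (SD, n = 5), and 114 to 179 CPM in Ag+Costim, with a mean of 145 ± 27.7 CPM (SD, n = 5). The log2 fold change of -1.48 at the first step (SE 0.16, adjusted p = 8.53e-06) was followed by one of -0.78 (SE 0.13, adjusted p = 0.000196). C230096K16Rik, which overlaps Klf3 on its strand, measured 38.3 to 45.6 CPM in Naive, 2.63 to 7.63 in Ag and 3.41 to 6.38 in Ag+Costim.

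Klf6 (ENSMUSG00000000078.7, chromosome 13, 5861482 to 5870394, plus strand), a growth-restraining factor of the same family, measured 253 and 301 CPM in Naive and 166, 155, 146, 127 and 170 CPM in Ag. It fell at that step by 0.86 on the log2 scale (SE 0.20, adjusted p = 0.00319). The Ag+Costim libraries measured 89.4, 95.7, 122, 166 and 142 CPM and overlapped the Ag libraries. The log2 fold change of -0.31 from Ag to Ag+Costim (SE 0.16, adjusted p = 0.111) was not called. It was called at -0.50 under upper-quartile scaling and at -0.43 without Ag+Costim 4. The fall from Naive to Ag was not called without Naive 2 (-0.73).

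Il7r (ENSMUSG00000003882.5, chromosome 15, 9505788 to 9530176, minus strand), the IL-7 receptor alpha chain, had the largest fall of the 10 genes after antigen alone. Naive measured 525 and 610 CPM. The Ag libraries measured 105, 122, 90.7, 91.4 and 119 CPM, which is a fall by 2.43 on the log2 scale (SE 0.18, adjusted p = 3.57e-07). This fall ranked 878th from the lowest among the 18817 genes. The Ag+Costim libraries measured 67.3, 60.2, 68.1, 104 and 64.8 CPM. Of these, only Ag+Costim 4 lay inside the Ag range, and the further fall of 0.54 on the log2 scale (SE 0.15, adjusted p = 0.00710) was 0.68 without that library.

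The BTG and TOB proteins link mRNAs to deadenylation. Btg1 (ENSMUSG00000036478.8, chromosome 10, 96617006 to 96622809, plus strand) was the most abundant of the 10 in CPM in resting cells, at 936 and 1055 CPM in Naive. The Ag libraries measured 812, 793, 965, 695 and 1089 CPM and overlapped Naive, and the log2 fold change was -0.19 (SE 0.28, adjusted p = 0.601), which was not called. The Ag+Costim libraries measured 118, 101, 114, 234 and 105 CPM, all far below Ag. The log2 fold change of -2.69 from Ag to Ag+Costim (SE 0.23, adjusted p = 4.86e-07) was the largest of the 10 at this step and ranked 651st from the lowest of all genes tested. It was -2.97 without Ag+Costim 4. The 2 near-copies Btg1-ps1 and Btg1-ps2 had 0 counts in every library.

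Btg2 (ENSMUSG00000020423.6, chromosome 1, 134075170 to 134079120, minus strand), a p53-inducible relative of Btg1, measured 268 and 316 CPM in Naive and 340, 406, 317, 297 and 437 CPM in Ag, and the log2 fold change was 0.30 (SE 0.18, adjusted p = 0.187), which was not called. In Ag+Costim, 4 libraries lay between 125 and 130 CPM and Ag+Costim 4 at 182 CPM. From Ag, Btg2 fell by 1.37 on the log2 scale (SE 0.14, adjusted p = 1.88e-06).

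Tob1 (ENSMUSG00000037573.5, chromosome 11, 94211454 to 94215495, plus strand), a repressor of T cell proliferation, went the other way at the second step. Naive measured 57.2 and 62.9 CPM and the Ag libraries 22.1, 27.4, 27.2, 28.8 and 31.0 CPM, which is a fall by 1.14 on the log2 scale (SE 0.23, adjusted p = 0.00107). The Ag+Costim libraries measured 27.5, 27.5, 33.4, 47.5 and 52.8 CPM. The rise of 0.47 on the log2 scale from Ag (SE 0.18, adjusted p = 0.0423) rested on Ag+Costim 3, 4 and 5, while Ag+Costim 1 and 2 lay inside the Ag range. It was not called in 14 of the 22 alternatives, among them upper-quartile scaling (0.27), FPKM (0.35) and the fits without Ag 1, 2, 3 or 4, Ag+Costim 4 or 5, or Naive 1 or 2 (0.32 to 0.49). Tob1 in Ag+Costim was still lower than in Naive, at -0.67 (SE 0.23, adjusted p = 0.0255), and this was not called without Naive 1 (-0.74) or Naive 2 (-0.60), without Ag+Costim 3 (-0.63) or in the fit of the 2 groups alone (-0.67).

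**Figure D2:**
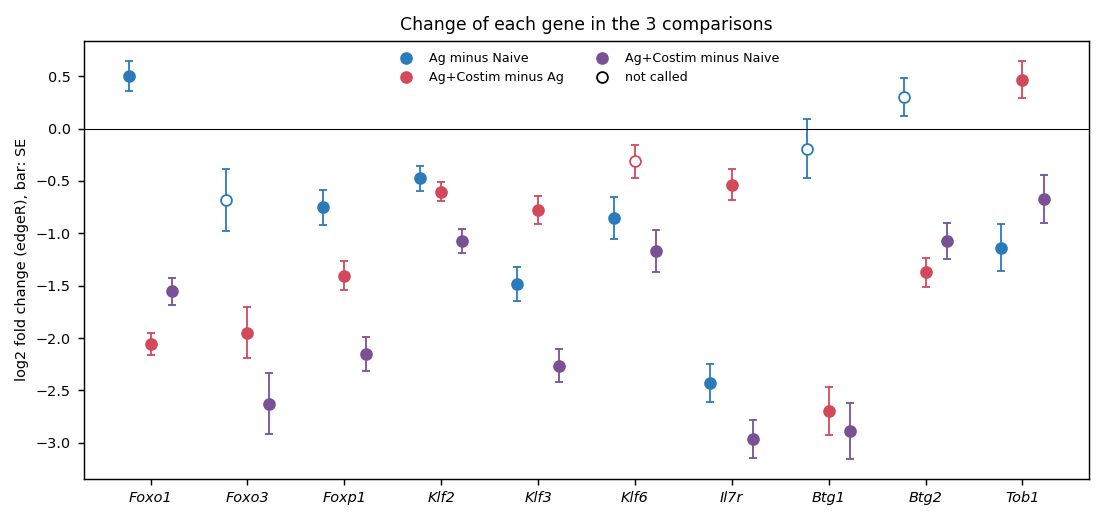
Log2 fold change of each gene in the 3 comparisons (edgeR, vertical axis), with its SE as the bar; filled points were called at an adjusted p below 0.05 and open points were not. All 10 purple points (Ag+Costim minus Naive) lie below 0, whereas only 6 filled blue points (Ag minus Naive) do.

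Whether the step from Ag to Ag+Costim differed from the step from Naive to Ag was tested in the same edgeR fit, as the second step's log2 fold change minus the first's. This contrast was added after the values had been seen, and both steps share the Ag libraries. Over all genes 8830 of 18817 were called. The fall was larger at the second step for Foxo1 (-2.56, SE 0.20, adjusted p = 5.80e-07), Btg1 (-2.50, SE 0.42, adjusted p = 0.000265), Btg2 (-1.67, SE 0.26, adjusted p = 0.000136) and Foxo3 (-1.27, SE 0.45, adjusted p = 0.0339). The fall was larger at the first step for Il7r (1.89, SE 0.29, adjusted p = 0.000108), and the contrast was also called for Tob1 (1.61, SE 0.35, adjusted p = 0.00195) and Klf3 (0.71, SE 0.25, adjusted p = 0.0333). Of these, Foxo3 was not called in 10 of the 21 alternatives, among them FPKM and the fits without Naive 1, Naive 2, Ag 1, Ag 2, Ag 4 or Ag+Costim 3 (-1.32 to -0.99). Klf3 was not called in 12 of them, among them upper-quartile scaling (0.47) and the fits without Naive 1, Naive 2, Ag 1, Ag 3, Ag 4 or Ag+Costim 5 (0.62 to 0.74), and it had the other sign after the length correction (-0.16). The contrast was not called for Foxp1 (-0.65, SE 0.26, adjusted p = 0.0512), although it was called in 6 of the alternatives, among them the length correction (-1.59), upper-quartile scaling (-0.89) and the fits without Ag 4 (-0.73) or Ag+Costim 4 (-0.79), and it had the other sign, uncalled, in FPKM (0.20). It was also not called for Klf6 (0.55, SE 0.30, adjusted p = 0.160) or Klf2 (-0.13, SE 0.18, adjusted p = 0.593), and the Klf2 contrast was called with the other sign after the length correction (0.50).

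Within the Ag+Costim group 1 library was the highest for most of the genes. Ag+Costim 4 had the highest value of the 5 for 7 of the 10 genes and the lowest for 2, Foxo1 and Klf2. The 10 genes summed to 1321 CPM there and to 931 to 1099 CPM in the other 4, and the 15 genes of dividing cells summed to 6507 CPM there and to 8138 to 8754 CPM in the others. It also had the highest sums of its group for the markers of T cells (8108 CPM against 5896 to 6690), B cells (1422 against 740 to 1018), natural killer cells (2294 against 1468 to 1986), CD4 and regulatory T cells (73.6 against 40.5 to 52.9) and myeloid cells (295 against 203 to 259). In this group Ighm, Nkg7 and Ctla4 made up most of the B cell, natural killer and CD4 sums. Its total count and share of aligned reads were within the range of the group. Without Ag+Costim 4, all 8 genes called lower from Ag to Ag+Costim were still called, and Klf6 was called as well, while the Tob1 rise was not (0.39).

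Levels of different genes were compared per length, as StringTie FPKM summed per gene. In Naive, Klf2 was the highest at 348 ± 1.49 FPKM (SD, n = 2), followed by Btg1 (223), Il7r (199), Foxp1 (185), Klf3 (176), Btg2 (117), Klf6 (73.9), Tob1 (29.0), Foxo1 (20.3) and Foxo3 (1.95). Btg1, Il7r, Foxp1 and Klf3 overlapped with their neighbours in that order and were not separated. In Ag, Klf2 (223 ± 21.7 FPKM), Btg1 (171 ± 25.8) and Btg2 (129 ± 20.8; SD, n = 5) led and overlapped in turn, and Il7r had moved to the seventh place at 31.7 ± 4.62 FPKM. In Ag+Costim, Klf2 still led at 143 ± 17.9 FPKM (SD, n = 5) and did not overlap with any other. From Btg2 (48.2 ± 8.49) through Foxp1, Klf3, Klf6, Btg1 (26.0 ± 10.8) and Il7r to Tob1 (15.7 ± 4.88 FPKM; SD, n = 5) each neighbour overlapped with the next. Foxo1 (5.99 ± 0.624) and Foxo3 (0.256 ± 0.106 FPKM; SD, n = 5) lay below them without overlap. With counts per kilobase of all annotated exons in place of FPKM, 15 of the 30 places were kept. Foxp1, with 31 transcripts and 13751 bases of exon, dropped from the fourth to the eighth place in Ag.

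**Figure D3:**
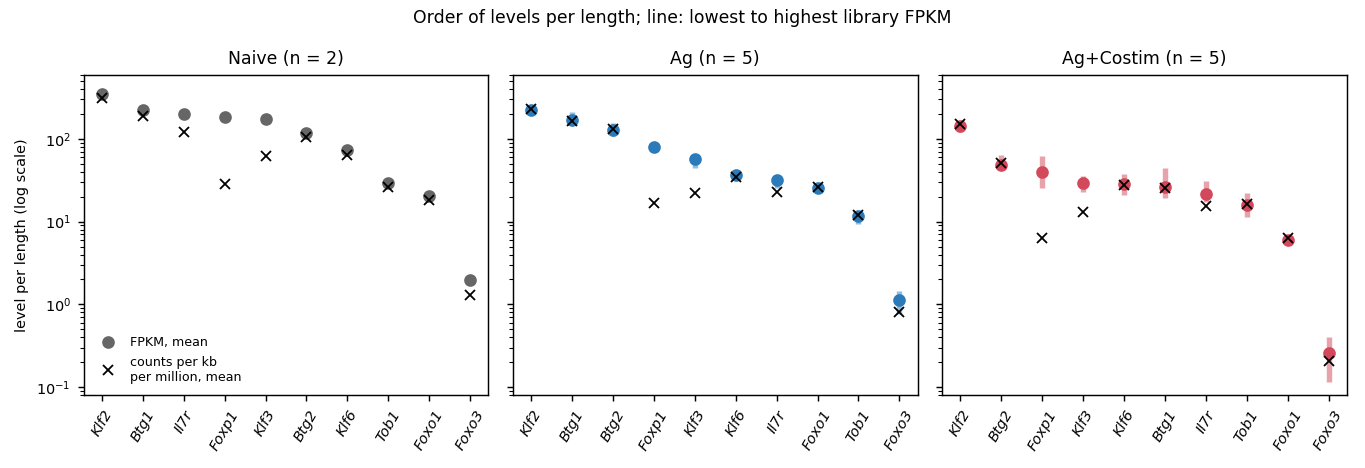
The 10 genes in the order of their mean FPKM in each group (circles, logarithmic axis), with a line from the lowest to the highest library. Crosses give CPM per kilobase of exon, which lie well below the FPKM for Foxp1 and Klf3; Klf2 is first and Foxo3 last in all 3 groups by both measures.

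The transcripts of these genes were examined next. Foxo1, Klf2, Btg2 and Tob1 have 1 annotated transcript. The share of a gene's transcript counts held by its leading transcript was compared between Ag+Costim and Ag in the other 6. This used an exact permutation test, two-sided, whose smallest p is 0.00794 for 5 against 5 libraries. Genes outside these 10 were not tested in this way, so no rate over all genes is known. Foxp1-204 (7177 bases, starting at 99435345) held 55.0% ± 5.05 of the Foxp1 counts in Ag and 21.1% ± 19.4 in Ag+Costim (SD, n = 5), with an exact permutation p = 0.0159, or 0.0476 adjusted over the 6 tests. The Naive libraries held 41.1% and 33.5%. The Ag libraries lay between 49.0% and 61.7%. The Ag+Costim libraries held 15.1%, 0%, 50.4%, 10.8% and 29.3%, so that Ag+Costim 3 lay inside the Ag range. The adjusted p rose to 0.0635 or 0.0952 (exact permutation) when any 1 library other than Ag 4 or Ag+Costim 3 was left out, with differences of -35.9 to -28.6 percentage points. In shares of FPKM the difference was -15.2 percentage points. Btg1-201 held 99.9% in Ag and 99.8% in Ag+Costim, a difference of -0.14 percentage points (exact permutation p = 0.00794, adjusted p = 0.0476), and its call was lost without the same libraries as for Foxp1 (-0.16 to -0.12). For Klf3-201 the shares were 78.8% ± 4.68 and 82.5% ± 1.08, for Il7r-204 66.2% ± 24.9 and 63.1% ± 13.6, for Foxo3-203 92.0% ± 4.87 and 95.9% ± 5.56, and for Klf6-201 99.1% ± 0.803 and 99.1% ± 0.770 (SD, n = 5), with exact permutation p of 0.151 to 0.937. In shares of FPKM the difference was 9.85 percentage points for Klf3-201, against 3.68 in counts, and passed the threshold (exact permutation, adjusted p = 0.0476), and it was 13.3 for Foxo3-203, against 3.95, and did not pass. In Klf3, a retained-intron transcript, Klf3-203, held 23.4% in Naive, 17.3% ± 3.39 in Ag and 15.8% ± 0.855 in Ag+Costim (SD, n = 5). StringTie divides single reads of 100 bases among overlapping transcripts, so these shares are estimates. Il7r-204 and Il7r-201 have near-identical spans, and the shares of both varied widely among the Ag libraries.

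Foxp1 transcripts were then grouped by their annotated start, a grouping made after the shares had been seen and given without a test. The 8 transcripts that start upstream of the internal start held 37.5% of the Foxp1 counts in Naive, 55.3% ± 5.01 in Ag and 21.2% ± 19.4 in Ag+Costim (SD, n = 5). The 4 that start within 50 bases of the internal start, before which the promoter with 3 CG pairs shown above lies, held 17.7%, 6.57% ± 2.43 and 4.98% ± 6.84 (SD, n = 5). The last mean rests on Ag+Costim 2, at 17.04%, and the other 4 libraries lay between 1.14% and 3.83%. The 19 that start downstream, whose most 3′ RefSeq promoter is the last one shown, held 44.8%, 38.1% ± 4.67 and 73.8% ± 15.6 (SD, n = 5). In mean counts the upstream transcripts went from 5243 in Ag to 774 in Ag+Costim and the downstream ones from 3522 to 2811. Ag+Costim 3 also stood apart from its group, with 50.4% upstream, inside the Ag range.

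**Figure D4:**
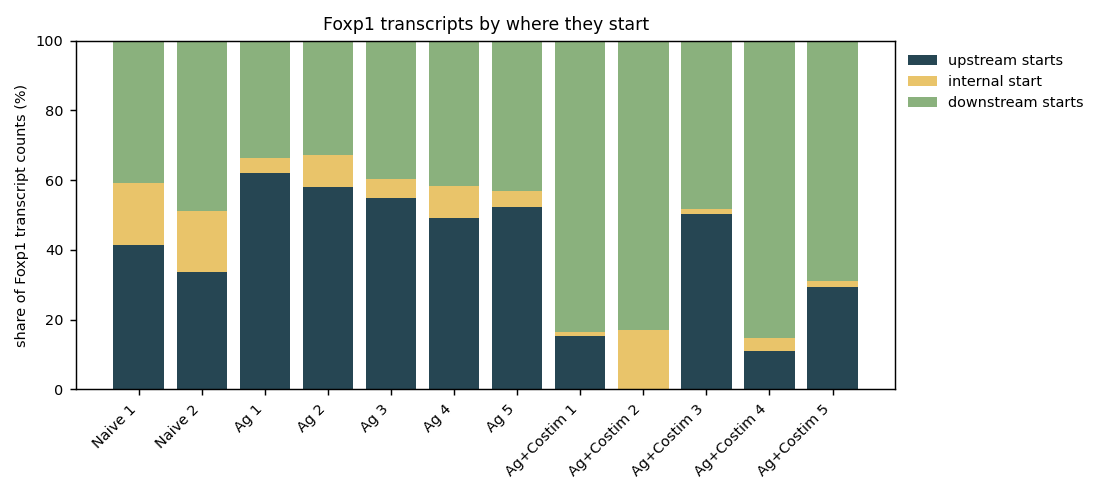
Share of the Foxp1 transcript counts (percent, stacked to 100) held in each library by transcripts whose annotated start lies upstream of, at or downstream of the internal start. Upstream starts hold 49.2% to 62.2% in the Ag libraries and 0.118% to 50.4% in the Ag+Costim libraries.

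Psi, the fraction of reads at a splice node that include it, was deposited as 1 value per group for Ag and Ag+Costim, so no replicate error is known. The 55 nodes of these genes lie in 7 of them, and 2 nodes (3.64%) differed by 0.2 or more, against 2.82% of all 115403 nodes. One was an alternative first exon of Foxp1 at chr6:99266347-99266515, directly after the internal promoter shown above, with Psi of 0.803 in Ag and 0.497 in Ag+Costim. Transcripts of that start held only 6.57% and 4.98% of the Foxp1 counts, far from the Psi, and the reason was not tested. The other was an alternative last exon of Foxo3 at chr10:42247431-42247786, with Psi of 0.930 in Ag and 0.426 in Ag+Costim. It belongs to the short transcript Foxo3-202, which held a mean of 18 counts per library in Ag and 2.8 in Ag+Costim. These were 7.34% and 4.06% of the Foxo3 counts, again far from the Psi. Nodes of Foxo1, Klf2, Klf3, Klf6 and Il7r differed by at most 0.0316. A further Foxp1 node, the exon where Foxp1-204 starts (chr6:99435216-99435345), had Psi of 0.914 in Ag and 0.884 in Ag+Costim. The share of Foxp1-204 in the Foxp1 counts was 55.0% and 21.1%, and the reason for this gap was not tested.

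The genes around these 10 were taken from lists of known partners, targets and regulators. Homing and naive-identity genes were mostly lower at both steps: of 13, 8 were called lower and 2 higher from Naive to Ag (median log2 fold change -1.22), and 10 lower and 1 higher from Ag to Ag+Costim (median -1.23). From Naive to Ag the largest falls were in Igfbp4 (181 to 6.21 CPM, -4.88), Satb1 (590 to 131 CPM, -2.17), a chromatin organizer, and Bcl2 (343 to 104 CPM, -1.72), the survival factor that IL-7 sustains. Dapl1 (367 to 1362 CPM, 1.89) and Id3 (246 to 908 CPM, 1.88), an inhibitor of E proteins, rose at that step. Those 2 then had the largest falls from Ag to Ag+Costim, at -2.60 and -2.28. Ets1 was the 1 gene that rose, from 433 to 625 CPM (0.53). From Naive to Ag+Costim, 11 were lower and none was higher.

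Of 16 known FOXO targets, 9 were lower and 2 higher from Naive to Ag (median -0.62), and 10 lower and 4 higher from Ag to Ag+Costim (median -0.76). Ddit4, an inhibitor of mTORC1, fell from 37.3 to 1.49 CPM with antigen (-4.65) and rose to 27.2 CPM with costimulation (4.199). Bcl6 did the same, from 8.54 to 1.75 (-2.29) and to 5.29 CPM (1.60). Irs2 fell at both steps, from 24.9 to 8.48 (-1.55) and to 0.977 CPM (-3.12). Pik3ip1, an inhibitor of PI3K, went from 444 to 184 and to 31.4 CPM, with the second fall (-2.56) among the 3 largest. Sesn1 fell from Ag to Ag+Costim (228 to 48.2 CPM, -2.25). Gabarapl1 (8.60 to 23.8 CPM, 1.47) and Cited2 (30.1 to 46.1 CPM, 0.61) rose with antigen, and Rbl2, a pocket protein that holds cells in G0, rose from 60 to 112 CPM with costimulation (0.90).

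The PI3K-AKT genes that act upstream of FOXO were more often called higher than lower at the second step. Of 17, 13 were lower and 1 higher from Naive to Ag (median -0.91), and 3 lower and 9 higher from Ag to Ag+Costim (median 0.40). Pik3r1 (119 to 32.4 CPM, -1.88), Pik3cd (718 to 206 CPM, -1.81) and Pik3r5 (211 to 62.8 CPM, -1.75), which encode PI3K subunits, had the largest falls with antigen. Akt1 was the 1 gene that rose (23.9 to 77.8 CPM, 1.70). With costimulation the largest rises were in Tsc2 (16.4 to 53.1 CPM, 1.70), Pik3r5 (to 185 CPM, 1.56) and the phosphatase gene Inpp5d (58.5 to 145 CPM, 1.31), and the falls were in Pik3ca (25.4 to 13.3 CPM, -0.93), Rictor (112 to 80.5 CPM, -0.48) and Tsc1 (21.2 to 15.5 CPM, -0.45). From Naive to Ag+Costim, 7 were lower and 2 higher. After the length correction the first step had 10 lower, 1 higher and a median of -0.42, and the second step had 8 higher, 5 lower and a median of 0.06, against 8, 5 and 0.20 under upper-quartile scaling.

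Il7r was set beside a mixed list of genes linked to its signalling, its feedback inhibition and its own regulation. Of 14 genes of that list, 8 were lower and 3 higher from Naive to Ag (median -0.68), and 4 lower and 8 higher from Ag to Ag+Costim (median 0.58). Socs3, a feedback inhibitor of cytokine receptors, fell from 198 to 20.2 CPM with antigen (-3.30), followed by Ets1 (-1.36) and Runx3 (113 to 49.96 CPM, -1.18). Gfi1, a repressor of Il7r, rose at that step from 8.29 to 26.9 CPM (1.70), as did Mcl1 (154 to 290 CPM, 0.91) and Gabpa (27.8 to 44.3 CPM, 0.67). With costimulation Stat5b (58.8 to 161 CPM, 1.45), Runx3 (to 134 CPM, 1.42) and Stat5a (34.3 to 86.7 CPM, 1.34) rose, whereas Mcl1 (to 103.5 CPM, -1.48), Gfi1 (to 13.8 CPM, -0.96) and Socs1 (53.3 to 29.6 CPM, -0.85) fell. The common gamma chain gene Il2rg, whose product pairs with the IL-7 receptor, was 1678, 1881 and 1176 CPM in Naive, Ag and Ag+Costim.

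Btg1, Btg2 and Tob1 were set beside the CCR4-NOT complex and other poly(A) proteins. Of 16 genes, 8 were lower and 3 higher from Naive to Ag (median -0.31), and 2 lower and 10 higher from Ag to Ag+Costim (median 0.62). Pan3 (42.5 to 13.6 CPM, -1.65), Tnks1bp1 (4.31 to 1.68 CPM, -1.37) and Pan2 (81.0 to 40.3 CPM, -1.01) had the largest falls with antigen, and Cnot11, Cnot9 and Cnot8 the rises (0.53, 0.43 and 0.37). With costimulation Tnks1bp1 (to 7.15 CPM, 2.101), Cnot1, the scaffold subunit (46.6 to 117 CPM, 1.32), and Cnot9 (82.8 to 176 CPM, 1.09) rose most, and Cnot6l (-0.50) and Cnot4 (-0.30) fell. After the length correction 3 were lower and 3 higher at the first step, with a median of 0.00, and 3 lower and 8 higher at the second, with a median of 0.29.

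Among 19 other quiescence factors tested, of 20 listed, 9 were lower and 5 higher from Naive to Ag (median -0.56), and 12 lower and 4 higher from Ag to Ag+Costim (median -0.87). Tsc22d3, the glucocorticoid-induced leucine zipper gene, fell at both steps (817, 268 and 68.1 CPM). Foxp4 fell with antigen (14.2 to 4.84 CPM, -1.55) and rose with costimulation (to 24.9 CPM, 2.37), opposite to Foxp1 at the second step. Klf7 fell with antigen (66.6 to 24.8 CPM, -1.43). Cdkn2c, a CDK inhibitor gene, rose at both steps (7.55, 35.9 and 64.2 CPM), as did Klf10 (25.8, 49.5 and 93.5 CPM). Btg3 rose with antigen (6.10 to 21.4 CPM, 1.82) and fell with costimulation (to 6.63 CPM, -1.69). Pnrc1 (389 to 69.5 CPM, -2.48) had the largest fall with costimulation.

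**Figure D5:**
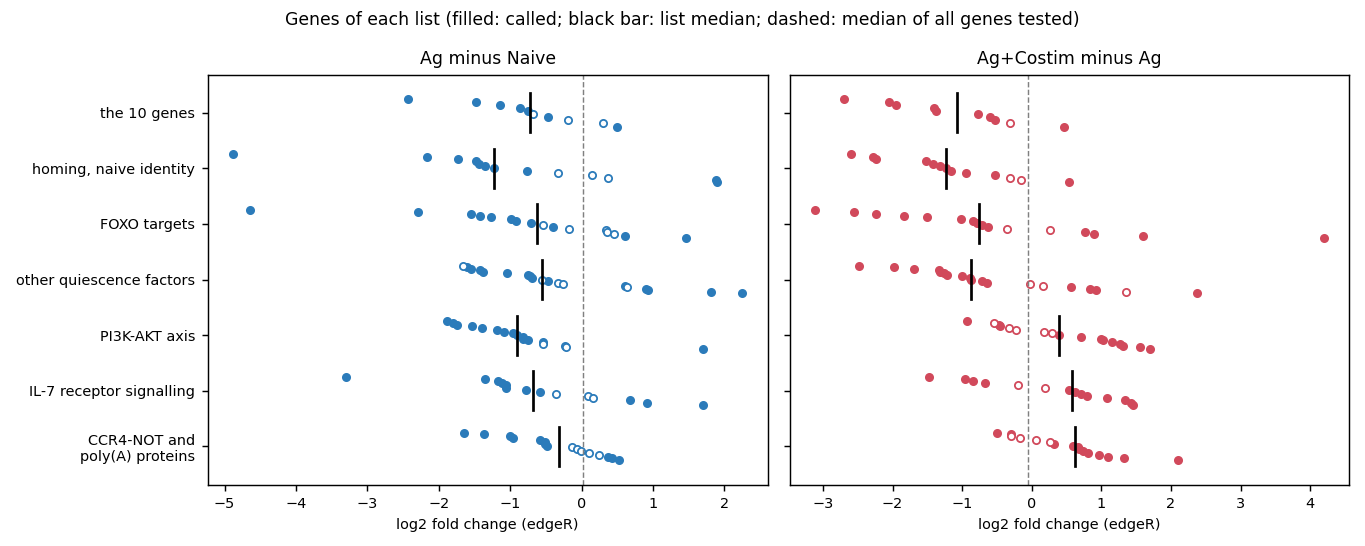
Log2 fold change (edgeR, horizontal axis) of the 10 genes and of each gene in 6 lists from Naive to Ag (left) and from Ag to Ag+Costim (right); filled points were called. The black bar is the median of the list and the dashed line the median of all genes tested. The bars of the PI3K-AKT, IL-7 receptor and CCR4-NOT lists lie left of it in the left panel (-0.91, -0.68 and -0.31). In the right panel they lie right of it (0.40, 0.58 and 0.62). After the length correction, not drawn, the left medians were -0.42, -0.49 and 0.00 against -0.06 over all genes, so that of CCR4-NOT lay above it. The right medians were then 0.06, 0.29 and 0.29 against -0.06.

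The genes most like each of the 10 were found by the root mean square difference of log2 CPM over the 12 libraries, with each profile centred on its mean of group means, groups weighted equally, and a mean log2 CPM above 3. Closest to Foxo1 were Ift80 (0.19) and Bmt2 (0.20), to Foxo3 Gm45606 (0.19) and Pisd-ps1 (0.20), and to Foxp1 Slc17a9 (0.12) and Paqr7 (0.14). Klf2 was close to Rabep1 (0.13), Klf3 was closest to Pdk1 (0.14) and Tec (0.16), and Klf6 to Snrk (0.12) and Mcoln1 (0.13). For Il7r they were Slc12a7 (0.16) and Mylip (0.23), for Btg1 Lpar6 (0.19) and Afp (0.19), for Btg2 Slc35b3 (0.11) and Traf3ip3 (0.13), and for Tob1 Slco3a1 (0.14) and Cmah (0.16). Among the 10 themselves the closest pairs were Klf2 with Klf6 (0.34), Foxo1 with Btg2 (0.35) and Foxp1 with Klf3 (0.36).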

How the data were processed

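Per the labels and the study's methods, the authors used HISAT2 2.1.0 for alignment to mm10, SAMtools 1.9 for sorting and StringTie 2.1.0 to derive counts. Libraries came from a SMART-Seq v4 and Nextera XT protocol, which does not mark strand, so overlapping antisense genes cannot be separated. The counts were deposited per gene and per transcript, not normalized, and a count derived from coverage is not exactly 1 read. FPKM was deposited per transcript, without transcript identifiers, and was matched here to the transcripts by its ratio to the counts. Psi was deposited as a fraction per group from Whippet, version not given in the sources used here, and how replicates were combined is not stated. The authors' Psi difference and probability columns were not used. The percent of reads aligned in each library was taken from a deposited sequencing report. Gene entries without an Ensembl identifier (26345 of 81881, 0.0508% to 0.121% of a library's counts) were left out, and gene models are those of GENCODE vM21.

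edgeR 4.0.16 in R 4.3.3 fitted 1 term per group to the 12 libraries after TMM scaling and filterByExpr, which kept 18817 genes, all 10 members among them. On simulated data of 15977 genes for Ag+Costim against Ag, 162 of 200 genes given a log2 difference of 1 were found again and 4 others were called. In the real data far more genes were called there (26.6% higher and 26.5% lower). The simulation therefore does not show how scaling or false calls behave with so many changes. CPM uses the TMM library sizes, and log2 CPM a prior count of 2. DESeq2 1.42.0, limma 3.58.1 on log2(FPKM + 1), other filters, scalings and left-out libraries were the alternatives. Exact permutation tests used scipy 1.17.1. Depth per library sets the counting error, and 3 counts correspond to 0.0609 to 0.125 CPM. The labels do not say that libraries come from separate animals, whereas the study calls them biological replicates; on the labels alone, p-values measure the spread between these samples, which may be technical.

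The 10 members, the gene lists and the tests were chosen with earlier results of these data known. The genes named are the 10 members, from each other list up to 3 called genes with the largest rise and 3 with the largest fall in a comparison, the 2 genes most like each member, and splice nodes that differ by 0.2 or more. Pathway lists were also counted under other scalings, an alternative added after seeing the data. Genes that overlap or copy a member, Cd3d, Cd3e, Cd3g, Trac, Cd8a, Cd4, Foxp3, Pax5 and Il2rg were named after their values were seen. Some genes that this rule names are not reported here.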

Additional observations from a re-analysis of the deposited data

Results flagged for a closer look

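In the Ag+Costim group, 1 library lay far from the other 4 for 4 of the genes, judged by its gap to the nearest library relative to the range of the group. Chance gives such a gap in about 1 in 20 groups, and 20 groups were examined (the 10 genes in Ag and in Ag+Costim). All 4 gaps were high values of Ag+Costim 4. Foxp1 measured 125 CPM there and 75.2 to 83.9 CPM in the other 4 libraries. Il7r measured 104 CPM against 60.2 to 68.1 CPM. Btg1 measured 234 CPM against 101 to 118 CPM, and Btg2 182 CPM against 125 to 130 CPM. The same library had the lowest summed level of the 15 genes of dividing cells in its group, 6507 CPM against 8138 to 8754 CPM. It also had the highest summed markers of T cells (8108 CPM against 5896 to 6690), B cells (1422 against 740 to 1018), natural killer cells (2294 against 1468 to 1986), CD4 and regulatory T cells (73.6 against 40.5 to 52.9) and myeloid cells (295 against 203 to 259). Most of the B cell, natural killer and CD4 sums in this group came from Ighm, Nkg7 and Ctla4. The part of these differences in the values above was not tested. Without it the log2 fold changes from Ag to Ag+Costim were -1.55 for Foxp1, -0.68 for Il7r, -2.97 for Btg1 and -1.47 for Btg2, and all 4 stayed called in edgeR's test.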

How the results depend on the processing

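All 10 genes kept the direction of their log2 fold change in each alternative of Ag+Costim against Ag and of Ag+Costim against Naive, and from Naive to Ag only Btg1 changed sign, to 0.0078, uncalled, after the transcript length correction. Between 5 and 8 of the 10 were called from Naive to Ag when 1 library was left out, 8 or 9 from Ag to Ag+Costim and 9 or 10 from Naive to Ag+Costim, against 7, 9 and 10 with all libraries. Over all genes, leaving out 1 library gave 2988 to 4948 called higher and 2831 to 4617 lower from Naive to Ag, with the lowest counts without Naive 2, and 3824 to 5389 higher and 3362 to 5152 lower from Naive to Ag+Costim. limma on unfiltered FPKM called 7302 genes lower there against 4778 in edgeR, and it tested more genes. In the contrast of the 2 steps, added after the values were seen, 5 to 8 of the 10 were called without 1 library. It changed sign for Foxp1 in FPKM (0.20 with a pseudocount of 1 with or without the filter, 0.19 with 0.1) and, after the length correction, for Klf2 (0.50, called at an adjusted p = 0.04987 in edgeR) and Klf3 (-0.16); the cause was not tested. The leading transcript share was tested in 6 genes only, so no rate over all genes stands beside its counts. With 1 library left out, 4 against 5 libraries cannot give an exact permutation p below 0.0159. This share passed the threshold for 2 of the 6 genes, for 3 in FPKM shares (Klf3 added), and for 0 to 2 with 1 library left out. Its difference changed sign without 1 library for Klf6 (0.15 without Ag 1, 0.15 without Ag 2, 0.24 without Ag+Costim 2, 0.07 without Ag+Costim 5; range -0.34 to 0.24) and Il7r (1.06 without Ag 1, 0.86 without Ag 3, 2.01 without Ag 5; range -11.7 to 2.01), in percentage points. With counts per kilobase, 15 of 30 places in the order of levels were kept.

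Same-numbered Ag and Ag+Costim libraries did not all deviate together (correlations of -0.0447 to 0.297 over genes), so the numbers were not taken as pairs. With the replicate block, 8 of the 10 genes were called from Naive to Ag, with Foxo3 added at -0.88, 9 from Ag to Ag+Costim and 10 from Naive to Ag+Costim. Where 1 of the 2 Naive libraries was left out, the lone one was assumed to vary like the other groups. Foxo3 lay at 10.1 CPM or less in every library, which limits its precision.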
